A study of Mus musculus with 9 samples.

Results

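The 8 genes described here encode the enzymes of the hepatic urea cycle and the carriers that link its mitochondrial and cytosolic steps: Cps1, Otc, Ass1, Asl, Arg1, Nags, Slc25a13 and Slc25a15. They were chosen by symbol from pathway knowledge, with earlier results of these data known. Each matched 1 of the 54393 gene rows of the table. Liver RNA came from mice of the strain labelled C56Bl/6j on the purified diet AIN-76a. The control group (5 libraries, replicates 1 to 5) is labelled as given no antibiotics. The antibiotics group (4 libraries, replicates 1, 2, 3 and 5) had its gut bacteria depleted with antibiotics that are not taken up from the gut. The labels do not name the antibiotics, their dose, the duration of treatment or the age of the mice. The comparison asks how liver transcripts differ when the microbiota is depleted.

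The urea cycle turns ammonia and the amino group of aspartate into urea. Its first steps run in the mitochondria of hepatocytes, where Nags makes N-acetylglutamate, the obligate activator of the carbamoyl phosphate synthetase Cps1, and Otc joins carbamoyl phosphate to ornithine to give citrulline. Slc25a15 exchanges ornithine and citrulline across the inner mitochondrial membrane, and Slc25a13 (citrin) exports aspartate in exchange for glutamate. In the cytosol Ass1 joins citrulline to aspartate, Asl splits argininosuccinate into arginine and fumarate, and Arg1 releases urea and regenerates ornithine. The pathway is most active in periportal hepatocytes, and gut bacteria are a source of the ammonia that reaches the liver through the portal vein.

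Library totals ran from 28156248 to 49628737 estimated counts in controls and from 15422891 to 59179622 with antibiotics. Antibiotics library 5 was the deepest of the 9, and antibiotics libraries 1, 2 and 3 were shallower than every control. The lowest count of any member was 818, and all 8 passed the filter on low counts. Hepatocyte markers, among them Alb, Apoa1 and Ttr, summed to between 107095 and 122554 CPM (counts-per-million on normalised library sizes) in controls and between 104430 and 113547 CPM with antibiotics. No marker of Kupffer cells (0 of 8), endothelial cells (0 of 8), stellate cells (0 of 8), bile duct cells (0 of 6 tested) or leukocytes (0 of 6 tested) passed edgeR's test, and of these markers 1 leukocyte gene had an unadjusted p under 0.05. Kupffer cell markers summed to between 179 and 537 CPM in controls and between 186 and 236 CPM with antibiotics. Of these 8 markers 0 had a log2 fold change above 0. Their median was -0.44, and -0.085 without control library 2. Of the leukocyte markers 1 of 6 was above 0 (median -0.29). Medians were -0.06 for endothelial, -0.01 for stellate and 0.17 for bile duct cell markers. The part of these cells in the results was not tested. Of the kidney markers 1 was tested, Lrp2, and it fell by 1.11 on the log2 scale from a control mean of 2.65 CPM (adjusted p = 0.0424), a call that ended whichever of the 9 libraries was omitted, and also with limma-voom, the replicate block and thinning. In whole tissue, more cells of a type and more RNA per cell cannot be told apart.

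Transcripts of the cytosolic lyase Asl and of the aspartate carrier Slc25a13 rose with antibiotics, 1.59-fold and 1.27-fold. All 8 members had a log2 fold change above 0, with a median of 0.37 beside -0.01 over all 14873 tested genes. In edgeR's quasi-likelihood test, with p-values adjusted by Benjamini and Hochberg's method over all genes, 2 of the 8 had an adjusted p under 0.05 and both were higher, where 2.68% of tested genes passed in either direction and 1.63% passed as higher. Without adjustment 7 of the 8 had p under 0.05, all higher, against 9.6% of tested genes. The 4 antibiotics libraries lay above all 5 controls for Asl, Ass1, Arg1, Slc25a13 and Slc25a15, that is 5 of 8 members, where 4.59% of tested genes were separated in that direction and 4.29% in the other. Otc was the member with the smallest difference, at 1.04-fold.

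**Figure D1:**
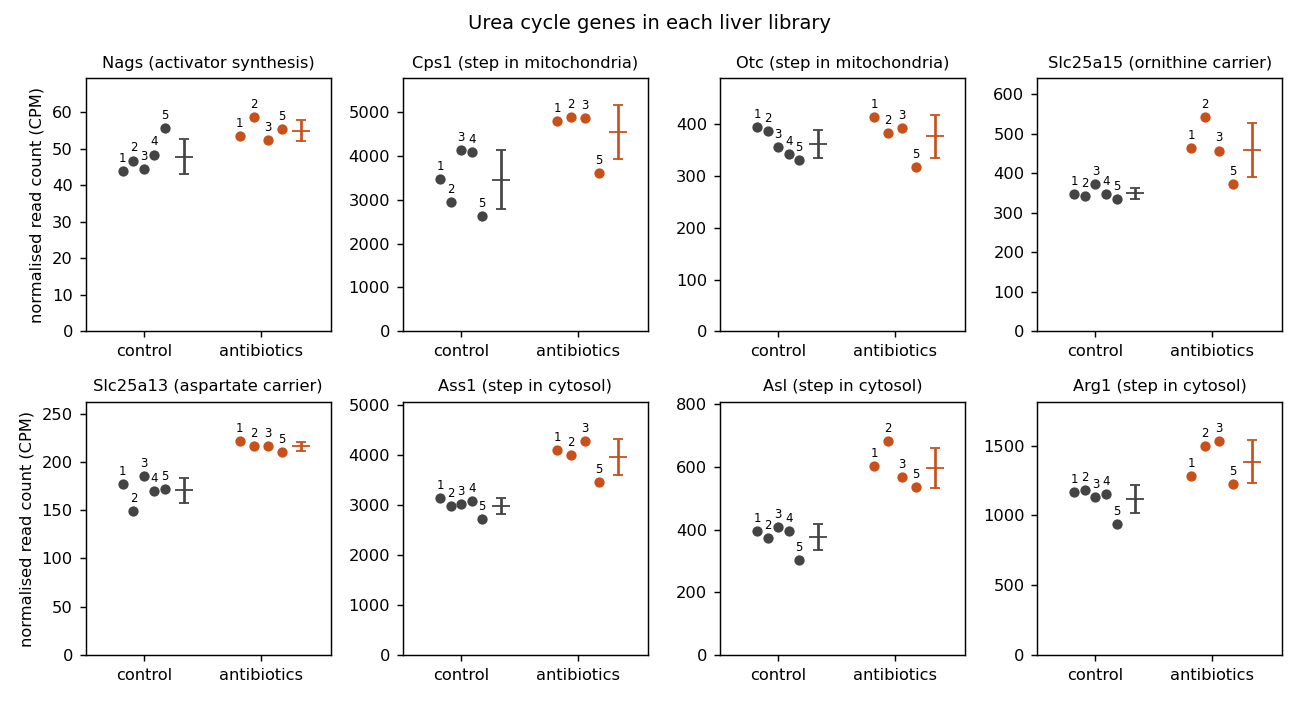
Normalised read count (CPM, y axis from 0) of each of the 8 genes in each liver library, by group. Points are libraries with their replicate numbers, and the bar beside each group is the mean with its SD over 5 control or 4 antibiotics libraries. For Asl the 4 antibiotics points, from 535 to 684 CPM, sit above every control, while for Otc the groups overlap.

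Nags (ENSMUSG00000048217.11, chromosome 11, 102145513 to 102149477, plus strand, GRCm38) was the lowest of the 8. It measured 43.8, 46.7, 44.5, 48.4 and 55.7 CPM in control libraries 1 to 5 and 53.4, 58.7, 52.3 and 55.4 CPM in antibiotics libraries 1, 2, 3 and 5. Control library 5 lay inside the antibiotics range and the other controls below it. Means were 47.8 ± 4.75 CPM (SD, n = 5) and 54.9 ± 2.79 CPM (SD, n = 4), a log2 fold change of 0.20 ± 0.08 (SE), which did not pass edgeR's test (adjusted p = 0.210). Exons of Nags overlap the gene Gm11586 on the opposite strand over 443 bases, and that gene had at most 64 counts in any library.

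Cps1 (ENSMUSG00000025991.8, chromosome 1, 67123026 to 67231259, plus strand) catalyses the entry step of the cycle. It measured 3481, 2945, 4142, 4098 and 2632 CPM in controls and 4808, 4896, 4877 and 3619 CPM with antibiotics. Antibiotics libraries 1, 2 and 3 lay above every control, and library 5 lay among the controls. From 3460 ± 675 CPM (SD, n = 5) to 4550 ± 622 CPM (SD, n = 4), this was a log2 fold change of 0.40 ± 0.16 (SE), which did not pass edgeR's test (adjusted p = 0.208). Its 95% interval, 0.05 to 0.74, was the widest of the 8 and is not adjusted for the number of genes.

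Otc (ENSMUSG00000031173.13, chromosome X, 10252305 to 10321024, plus strand), which makes citrulline, measured 395, 387, 357, 342 and 331 CPM in controls and 414, 384, 394 and 318 CPM with antibiotics. The highest and the lowest value both came from antibiotics libraries, 1 and 5. The log2 fold change was 0.06 ± 0.09 (SE, edgeR adjusted p = 0.790). Its 95% interval, -0.15 to 0.27, allows a fold between 0.902 and 1.20, so a rise as large as that of Asl lies outside it, and a rise of the size measured for Nags lies inside it.

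The mitochondrial ornithine carrier Slc25a15 (ENSMUSG00000031482.9, chromosome 8, 22375551 to 22398597, minus strand) was steady among controls, at 349, 343, 373, 348 and 334 CPM, and spread more with antibiotics, at 463, 543, 458 and 373 CPM. The lowest antibiotics library, 5, lay 0.872 CPM above the highest control, so that the groups were separated by far less than the spread within either. On the log2 scale the difference was 0.39 ± 0.10 (SE), with an adjusted p of 0.0620 in edgeR and 0.00593 in DESeq2. The paralogous ornithine carriers were low: Slc25a2 measured 0.199 ± 0.0564 CPM in controls (SD, n = 5) and was not tested, and Slc25a29, which carries basic amino acids, measured 2.24 ± 0.366 and 3.34 ± 0.293 CPM (edgeR adjusted p = 0.0722). Both were named after their values were seen.

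The aspartate-glutamate carrier Slc25a13 (ENSMUSG00000015112.15, chromosome 6, 6041218 to 6217173, minus strand) measured 177, 149, 185, 169 and 172 CPM in controls and 222, 217, 217 and 211 CPM with antibiotics. All 4 antibiotics libraries lay within 11.5 CPM of each other and above every control. The log2 fold change was 0.34 ± 0.07 (SE), from 171 ± 13.3 CPM (SD, n = 5) to 217 ± 4.69 CPM (SD, n = 4), and passed edgeR's test (adjusted p = 0.0372). Leaving out control library 1 ended the call (adjusted p = 0.0602), as did leaving out control library 2 (0.0640) or 4 (0.0691) or antibiotics library 1 (0.109), 2 (0.0770), 3 (0.0986) or 5 (0.0905), while the log2 fold change stayed between 0.30 and 0.38. Slc25a12 (aralar), the other aspartate-glutamate carrier, is the main form in muscle and brain, and here it measured 17.7 ± 1.17 CPM in controls and 18.1 ± 2.27 CPM with antibiotics (edgeR adjusted p = 0.894).

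Ass1 (ENSMUSG00000076441.9, chromosome 2, 31470207 to 31520672, plus strand), which uses the aspartate that citrin exports, measured 3146, 2977, 3016, 3069 and 2724 CPM in controls and 4093, 4003, 4285 and 3458 CPM with antibiotics. Every antibiotics library was higher than every control, with library 5 the nearest to them. Ass1 thus differed by 0.41 ± 0.10 (SE) on the log2 scale, from 2986 ± 160 CPM (SD, n = 5) to 3960 ± 355 CPM (SD, n = 4), and the adjusted p of 0.0547 in edgeR missed the threshold. The call of Ass1 depended on the tool and setting. It passed in 4 of 10 alternatives, where the adjusted p was 6.32e-05 with DESeq2, 0.0363 with limma-voom, 0.0458 with upper-quartile factors and 0.0435 where genes averaging under 1 CPM were dropped. In the other 6 it was 0.0503 to 0.107, highest with no filter on low counts, and with 1 library omitted it passed in 0 of 9 fits (0.0637 to 0.150). Ass1 shares 1240 bases at 99.5% identity with the gene Gm5424, which had at most 256 counts in a library, so a part of its reads could be counted there.

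Asl (ENSMUSG00000025533.15, chromosome 5, 130011258 to 130029247, minus strand), the lyase that releases arginine and fumarate, had the largest change of the 8. It measured 396, 374, 410, 396 and 304 CPM in controls and 603, 684, 567 and 535 CPM with antibiotics. The lowest antibiotics library stood 126 CPM above the highest control. Asl rose by 0.67 ± 0.11 (SE) on the log2 scale, from 376 ± 42.0 CPM (SD, n = 5) to 597 ± 64.2 CPM (SD, n = 4), with an adjusted p of 0.0140 in edgeR. The call held in 8 of 9 fits with a library omitted, and ended without antibiotics library 1 (adjusted p = 0.0544). Between these fits the log2 fold change ranged from 0.60 to 0.72.

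Arg1 (ENSMUSG00000019987.9, chromosome 10, 24915221 to 24927484, minus strand), the liver arginase, measured 1164, 1181, 1135, 1154 and 939 CPM in controls and 1280, 1499, 1535 and 1225 CPM with antibiotics. The groups did not overlap, and the gap between them, 44.5 CPM, was smaller than the SD of either group. The log2 fold change was 0.31 ± 0.11 (SE, edgeR adjusted p = 0.143), and DESeq2 gave an adjusted p of 0.0377. The mitochondrial arginase Arg2 was at most 0.327 CPM in any library and was not tested.

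**Figure D2:**
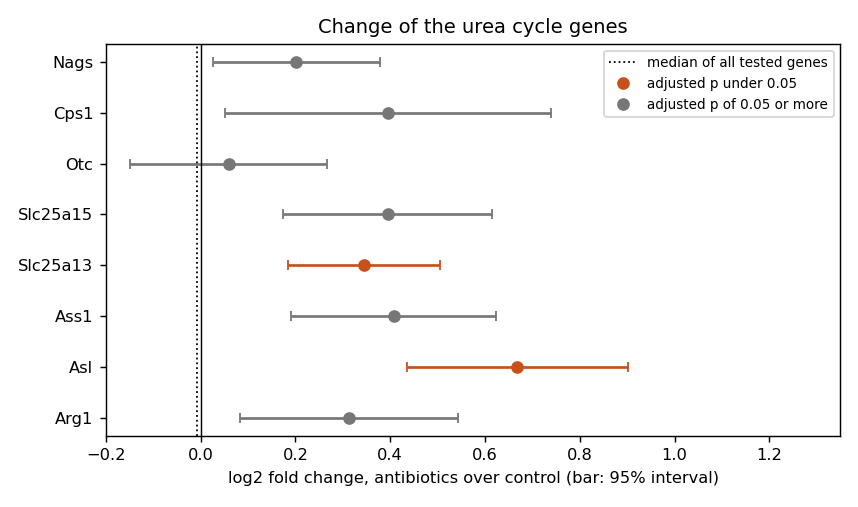
Log2 fold change (antibiotics over control, x axis) of each of the 8 genes, in the order of the cycle from Nags to Arg1. Points are the fitted values over 5 control and 4 antibiotics libraries, bars their 95% intervals, and the dotted line is the median of all tested genes. Asl and Slc25a13, with values of 0.67 and 0.34, are the 2 that passed at an adjusted p under 0.05, and the interval of Otc spans 0.

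Sequence upstream of the transcription start was read from RefSeq (GRCm38.p6), which held windows for 5 of the 8 members: Ass1, Otc, Nags, Slc25a13 and Slc25a15. The stretches below set Slc25a13, which passed the test, and Ass1, the most abundant of the members whose groups were separated, beside Otc, which differed least. They run 5′ to 3′ on the gene's strand, end before the first annotated exon, and capitals mark matches to the motifs searched. They lie at chr6:6217174-6217423 (minus strand), chr2:31470020-31470206 (plus strand) and chrX:10252055-10252304 (plus strand).
Slc25a13: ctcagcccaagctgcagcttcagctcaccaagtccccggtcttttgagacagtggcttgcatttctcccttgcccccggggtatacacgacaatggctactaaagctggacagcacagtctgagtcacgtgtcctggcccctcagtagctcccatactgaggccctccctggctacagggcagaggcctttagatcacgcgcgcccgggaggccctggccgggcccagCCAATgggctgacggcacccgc
Ass1: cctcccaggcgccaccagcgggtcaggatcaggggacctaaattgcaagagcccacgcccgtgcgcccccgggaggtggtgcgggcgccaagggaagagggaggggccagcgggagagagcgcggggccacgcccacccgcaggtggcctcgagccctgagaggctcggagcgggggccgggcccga
Otc: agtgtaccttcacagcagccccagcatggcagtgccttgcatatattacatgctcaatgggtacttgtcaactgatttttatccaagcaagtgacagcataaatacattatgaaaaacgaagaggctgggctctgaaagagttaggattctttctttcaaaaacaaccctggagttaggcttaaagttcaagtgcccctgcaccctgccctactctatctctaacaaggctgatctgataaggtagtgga

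The motifs were the TATA box (TATAAA), the CCAAT box (CCAAT), the GC box (GGGCGG), the core of the C/EBP site (TTGCNNAA) and the cyclic AMP response element (TGACGTCA), each searched on both strands in the 250 bases before the start. Slc25a13 held 1 CCAAT box, 22 to 18 bases before its start, in a stretch of 62.8% GC. Of 32841 windows of the same length, 33.9% held a CCAAT box. The printed stretch of Ass1 was 75.4% GC and held no match, and its full window held 1 GC box, 63 to 58 bases before the RefSeq start. A GC box occurred in 32.7% of windows. The window of Otc, 43.6% GC, held no match to any of the 5 motifs, where 12.4% of windows held the TATA box, 9.57% the C/EBP core and 1.55% the cyclic AMP response element. Nags held 2 GC boxes. Slc25a15 has 2 RefSeq starts, with 2 GC boxes before the one and 5 before the other, of which 2 overlap, and no match to the other 4 motifs. Both windows begin inside annotated exons and are not printed. No match says only that these letters are not in this window.

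Levels of different genes were compared per length, as counts divided by the length of the APPRIS principal transcript and scaled to the same total in each library (transcripts-per-million, TPM). On that scale Ass1 was the most abundant member in controls, at 2985 ± 280 TPM (SD, n = 5), followed by Arg1 at 1280 ± 153 and Cps1 at 1061 ± 251, whose ranges overlapped. Asl (264 ± 38.2) and Otc (264 ± 21.5) came next with overlapping ranges, then Slc25a15 (172 ± 12.5), Slc25a13 (92.6 ± 9.13) and Nags (39.9 ± 3.97). These last 3 were each separated from their neighbours in every control library. With antibiotics, Asl at 385 to 484 TPM lay above Otc at 248 to 295 in all 4 libraries, whereas in controls their ranges were 204 to 303 and 231 to 288. With the length of all merged exons in place of the principal transcript, Cps1 (1310 ± 305 TPM) stood above Arg1 (1048 ± 122) in controls, so that their order depends on the length used. The 8 genes together took between 0.725% and 1.02% of all counts in controls and between 1.03% and 1.22% with antibiotics, by the counts before scaling.

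Ratios between members restate the differences of the single genes. The mean log2 CPM of Ass1, Asl and Arg1 minus that of Cps1, Otc and Nags was 1.53, 1.54, 1.47, 1.46 and 1.33 in controls and 1.63, 1.74, 1.74 and 1.72 with antibiotics, without overlap. The cytosolic genes had log2 fold changes of 0.41, 0.67 and 0.31, and the mitochondrial ones of 0.40, 0.06 and 0.20. Cps1 thus differed about as much as Ass1, and not every cytosolic gene exceeded every mitochondrial one. The log2 ratio of Arg1 to Asl, the consecutive steps around arginine, was 1.47 to 1.66 in controls and 1.09 to 1.44 with antibiotics. Slc25a15 over Otc, the carrier and the enzyme that both handle ornithine in mitochondria, had a log2 ratio of -0.18 to 0.06 in controls and 0.16 to 0.50 with antibiotics. For 2 further ratios the groups overlapped: Asl over Ass1 was -3.16 to -2.88 in controls and -2.92 to -2.55 with antibiotics, and Otc over Cps1 was -3.58 to -2.93 and -3.67 to -3.51. The ratios show unequal differences between members and were not tested.

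Over the libraries the members shared part of their pattern. The mean of their log2 levels relative to the control mean was 0.04, -0.03, 0.07, 0.05 and -0.12 in control libraries 1 to 5 and 0.38, 0.45, 0.39 and 0.17 in antibiotics libraries 1, 2, 3 and 5. Antibiotics library 5 was the lowest of its group for 7 of the 8 members, all but Nags, and control library 5 the lowest of its group for 6, all but Nags and Slc25a13. The sum of the 13 mitochondrially encoded mRNAs is a measure that can follow RNA quality. Within each group it ranked the libraries in the same order as the mean of the members. Relative to the control mean it was -0.01, -0.10, 0.31, 0.04 and -0.23 in controls and 0.28, 0.48, 0.46 and -0.09 with antibiotics on the log2 scale. In CPM that sum ran from 44865 to 65257 in controls and from 49446 to 73683 with antibiotics, and 0 of the 13 passed edgeR's test (4 had an unadjusted p under 0.05, all higher). All 13 had a log2 fold change above 0, with a median of 0.32 beside 0.37 for the 8 members. In antibiotics library 5 the sum lay within the control range. There Asl, Ass1, Arg1, Slc25a13 and Slc25a15 were each above their highest control, Slc25a15 by 0.872 CPM. With mitochondrially encoded genes left out of the library totals, edgeR's adjusted p was 0.0139 for Asl and 0.0344 for Slc25a13. With every library thinned to the smallest total it was 0.0164 and 0.0399. Neither fit had depth or the mitochondrial sum as a term, and the part of both was not tested. Without antibiotics library 5 the log2 fold change was 0.72 for Asl (adjusted p = 0.0374) and 0.36 for Slc25a13 (adjusted p = 0.0905).

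**Figure D3:**
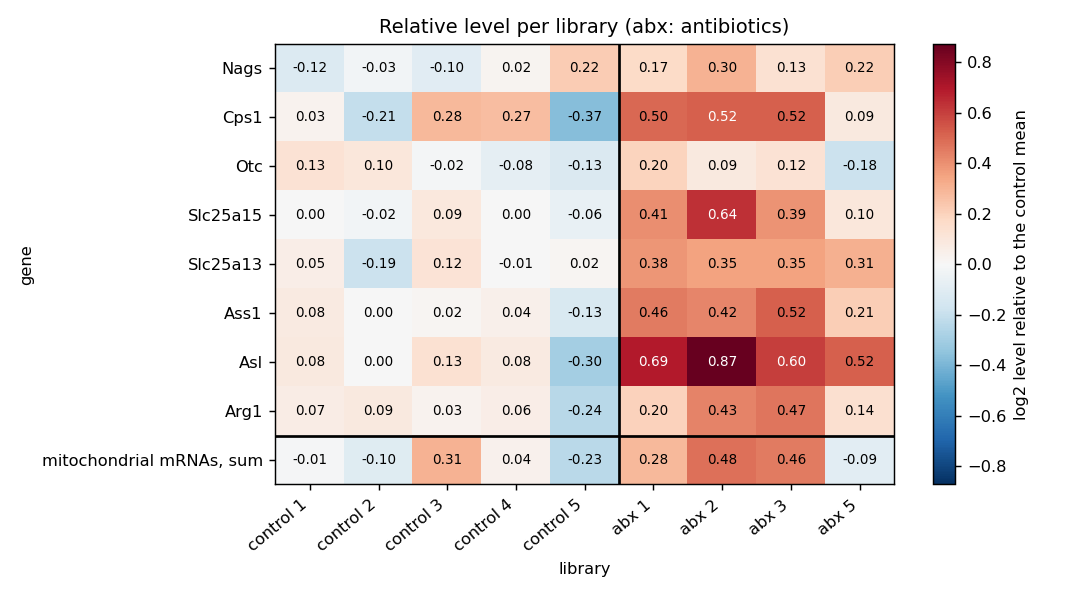
Log2 level of each of the 8 genes (rows, in the order of the cycle) in each of the 9 libraries (columns; abx, antibiotics) relative to the control mean, with the sum of the mitochondrially encoded mRNAs in the lowest row. Red is higher and blue lower than the control mean. Asl is above 0.5 in all 4 antibiotics libraries, and antibiotics library 5 has the lowest values of its group for most genes and for the mitochondrial sum.

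Of 14 tested genes for ammonia, glutamine and bicarbonate supply to the cycle, 2 were higher by edgeR's test and 0 lower, with a median log2 fold change of 0.04. Over all tested genes 1.63% passed as higher and 2.68% in either direction. Slc38a3 (SNAT3), the glutamine transporter of periportal hepatocytes, rose 1.47-fold, from 1156 to 1403 CPM in controls to 1802 to 2017 CPM with antibiotics (adjusted p = 0.0170). Car5a, the mitochondrial carbonic anhydrase that supplies bicarbonate to Cps1, rose from 49.7 ± 4.08 to 68.3 ± 4.94 CPM (adjusted p = 0.0178). Both calls ended without antibiotics library 1, 3 or 5, with adjusted p of 0.0533 to 0.0670, which left the list with 0 calls. Gls2, the liver glutaminase, measured 286 ± 38.6 and 362 ± 27.2 CPM (adjusted p = 0.112), and Slc1a2, a glutamate transporter, had an adjusted p of 0.0902. Glul, the glutamine synthetase of pericentral cells, measured 902 ± 108 and 864 ± 34.5 CPM (adjusted p = 0.792), and Glud1, which releases ammonia from glutamate, a mean of 838 and 837 CPM (adjusted p = 0.993).

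Among enzymes of arginine, ornithine, proline and polyamines, 4 of 23 tested genes were higher and 1 lower, with a median of 0.22. The shares of all tested genes were 1.63% higher and 2.68% in either direction. Genes that break down ornithine and proline were among the higher ones. Oat, which turns ornithine into glutamate semialdehyde, rose 1.63-fold (582 ± 82.5 to 950 ± 117 CPM, edgeR adjusted p = 0.020), and the proline dehydrogenase Prodh rose 1.49-fold (adjusted p = 0.0188). Aldh4a1, the next enzyme after both, rose from 298 ± 15.4 to 399 ± 32.9 CPM (adjusted p = 0.0240). Aldh18a1, which runs the opposite way from glutamate towards proline and ornithine, fell from 3.65 ± 1.19 to 1.58 ± 0.210 CPM (adjusted p = 0.0330). The fourth higher gene was Azin1, an antizyme inhibitor (adjusted p = 0.0475), named after its value was seen. Slc7a2, the hepatic carrier of cationic amino acids, measured 637 ± 206 and 748 ± 150 CPM (adjusted p = 0.627). Without antibiotics library 1 or 3 the list had 0 calls in either direction, and without antibiotics library 5 it had 1 higher and 0 lower. Omitting control library 2 left 2 higher and 0 lower, omitting control library 4 left 2 higher and 1 lower, and omitting antibiotics library 2 left 3 higher and 0 lower. Prodh also missed the threshold without antibiotics library 5 (adjusted p = 0.0523), as did Aldh4a1 without control library 2 (0.0540) or 4 (0.0547).

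On the aspartate and fumarate side, 1 of 17 tested genes was higher and 0 lower, with a median of 0.13, where 1.63% of all tested genes were higher. Slc25a10, the dicarboxylate carrier, rose from 78.5 ± 11.9 to 114 ± 11.3 CPM (edgeR adjusted p = 0.0361), a call that held with control library 1, 3 or 5 omitted. It ended without control library 2 or 4 (adjusted p = 0.0562 and 0.0645) and without antibiotics library 1, 2, 3 or 5 (0.110, 0.0623, 0.0652 and 0.106). Without control library 5 the list had 2 higher genes. The malate carrier Slc25a11 and the fumarase Fh1, which takes up the fumarate released by Asl, differed by 0.30 ± 0.07 and 0.29 ± 0.08 on the log2 scale (SE, adjusted p = 0.0531 and 0.0662). Got1, the cytosolic aspartate aminotransferase, measured 317 to 514 CPM in controls and 491 to 741 CPM with antibiotics (adjusted p = 0.0652), and its mitochondrial counterpart Got2 had a log2 fold change of 0.13 ± 0.08 (adjusted p = 0.424).

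Of 18 tested enzymes that release or transfer amino nitrogen, 4 were higher and 1 lower, with a median of 0.21. The shares of all tested genes were 1.63% higher and 2.68% in either direction. Gpt, the alanine aminotransferase, rose from 137 ± 6.24 to 208 ± 21.6 CPM (edgeR adjusted p = 0.00768) and passed whichever of the 9 libraries was omitted. Agxt, the peroxisomal alanine-glyoxylate aminotransferase, rose 1.68-fold (adjusted p = 0.0390) and the serine dehydratase Sds 1.54-fold (adjusted p = 0.0408). Kyat3, a kynurenine aminotransferase, fell from 253 ± 19.8 to 184 ± 5.19 CPM (adjusted p = 0.0155). The other higher gene was Bcat2, a branched-chain aminotransferase (adjusted p = 0.0451), named after its value was seen. The call of Agxt held only without control library 5 or antibiotics library 2, and that of Sds only without control library 4. The call of Kyat3 ended without antibiotics library 1 (adjusted p = 0.0544), 3 (0.0602) or 5 (0.0569). The list had 1 higher gene without control library 1 or 2 or antibiotics library 1, 3 or 5, and 2 without control library 5.

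Several regulators of the cycle did not pass the test. Cebpa, which is needed for urea cycle gene expression in liver, differed by 0.25 ± 0.13 on the log2 scale (SE, edgeR adjusted p = 0.320). The glucagon receptor Gcgr had an adjusted p of 0.444, the glucocorticoid receptor Nr3c1 of 0.445, and Sirt5, a deacylase that acts on Cps1, of 0.508. Cebpa, Gcgr, Nr3c1 and Sirt5 were named after their values were seen. Ppargc1a and Fgf21, which respond to fasting, differed by -0.59 ± 0.25 and -0.85 ± 0.27 on the log2 scale (SE, adjusted p = 0.248 and 0.115).

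**Figure D4:**
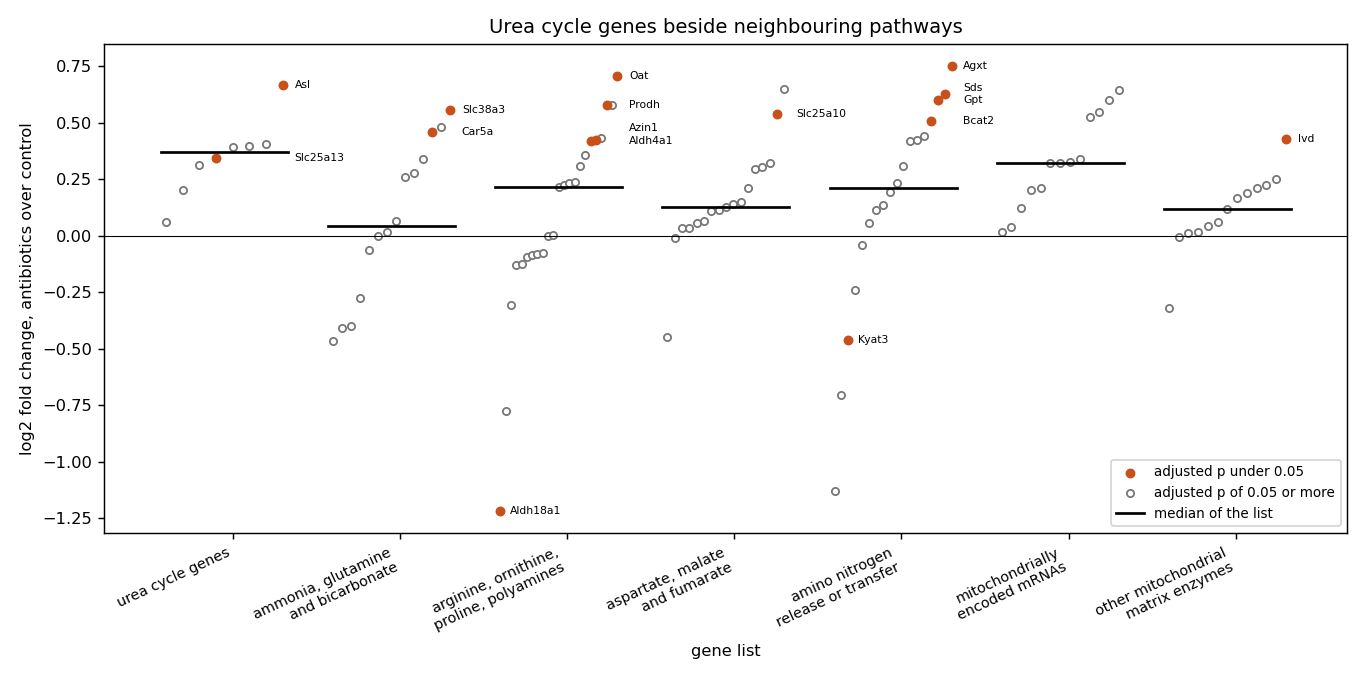
Log2 fold change (antibiotics over control, y axis) of every tested gene in the urea cycle and 6 other lists (x axis). Each point is 1 gene, filled and named where its adjusted p was under 0.05, and the black bar is the median of the list. The urea cycle median of 0.37 is beside medians of 0.04 to 0.22 in the neighbouring nitrogen lists and 0.32 for the mitochondrially encoded mRNAs.

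The genes most like the members over the 9 libraries were picked from these same data, so their small distances follow from the choice. Likeness was the root mean square difference between a gene's log2 levels, each relative to its control mean, and the mean of the same over the 8 members, among the 7403 genes that averaged 10 CPM or more. The 5 nearest were Pcgf5, Dmgdh, Eva1a, Rnf13 and Prkag2, at 0.064 to 0.078 log2 units, where the median gene was 0.297 away. Eva1a and Prkag2 passed edgeR's test (adjusted p = 0.0319 and 0.0277). Pcgf5, Dmgdh and Rnf13 did not (0.06, 0.065 and 0.11). The 5 nearest to Asl itself were Cth, Slc47a1, Acy1, Etnk2 and Ahcy, at 0.093 to 0.136, where the median was 0.501. Cth is the cystathionine lyase of transsulfuration, Acy1 an aminoacylase, and Ahcy the hydrolase of S-adenosylhomocysteine. Among the members themselves Ass1 was nearest to Arg1 (0.10) and to Slc25a15 (0.10), and Asl was farthest from Otc (0.43).

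**Figure D5:**
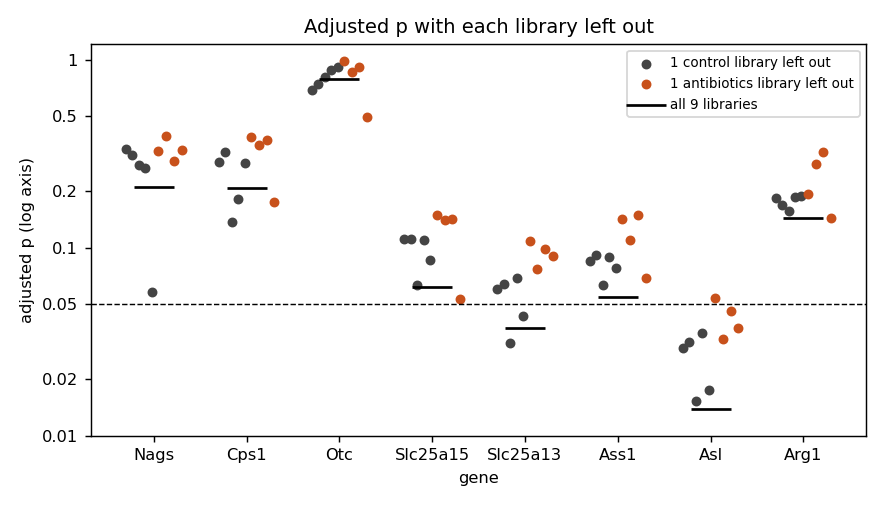
Adjusted p from edgeR (y axis, log scale) of each of the 8 genes with all 9 libraries (black bar) and with 1 control or 1 antibiotics library left out (points). The dashed line marks 0.05. Asl lies below it in 8 of 9 fits, Slc25a13 in 2 of 9, and the other 6 genes in 0 of 9.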

How the data were processed

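The submitters' processing notes name Salmon and GRCm38 for the deposited table of estimated counts per gene. Its version, strand setting and annotation were not found in the labels. All values were whole numbers, so the deposited estimated counts were used as they stood, and all 54393 identifiers matched GENCODE M21. Per the labels' protocols, RNA was extracted with Trizol and libraries were made with a stranded mRNA kit.

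Genes were filtered with filterByExpr (minimum count 10, minimum total 15, 14873 kept), scaled by TMM and tested by quasi-likelihood in edgeR 4.0.16 (R 4.3.3), with group as the only term. The SE is the size of the log2 fold change divided by the square root of F, and log2 levels of single libraries used a prior count of 2. The test was checked on simulated counts for these 14873 genes, where it recovered 6% of the genes with a 1.25-fold change, 32% of those with a 1.5-fold change, 68% at 2-fold and 94% at 4-fold. Alternatives were DESeq2 1.42.0, limma-voom (limma 3.58.1), other scalings, filters and thresholds, thinning to the smallest total, a block for the replicate number, and each library omitted in turn. Added after seeing the data were joining Ass1 with Gm5424 (found with BLAST+ 2.17.0, at least 95% identity over 200 bases), the second length scale and the omission of libraries for the other lists. The members and lists were chosen with earlier results of these data known. Named were the 8 members, up to 4 genes with the smallest p in each other list, 10 fixed genes, and the 5 genes nearest to the members' mean and the 5 nearest to Asl; exceptions are named as such. For the list of regulators only part of the results is reported here. Of the listed symbols, 2 of 28 in the arginine list, 1 of 14 matrix enzymes and 1 of 10 hepatocyte markers matched no row under the symbol used. No library pair of a group agreed within sampling noise (chi-square per degree of freedom at least 18.5). Whether libraries came from separate mice is not in the labels, so p-values measure the spread between libraries, which may be technical.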

Additional observations from a re-analysis of the deposited data

Results flagged for a closer look

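In 2 of the 16 sets of libraries examined (8 genes in 2 groups) 1 library stood apart from the rest of its group, where chance alone would mark about 1 in 20 independent sets. The 8 genes were measured in the same libraries and shared part of their pattern. The 16 sets are therefore not independent, and the 2 shares cannot be set against each other. Cps1 in antibiotics library 5 measured 3619 CPM, and the nearest of the other 3 antibiotics libraries 4808 CPM, a gap of 0.931 of the whole range of the group. Without that library the log2 fold change of Cps1 was 0.49 and still did not pass edgeR's test (adjusted p = 0.175). Arg1 in control library 5 measured 939.5 CPM, and the nearest other control 1135 CPM, a gap of 0.808 of the range. Omitting that control, the log2 fold change of Arg1 was 0.26 (adjusted p = 0.188). In both libraries the sum of mitochondrially encoded mRNAs was the lowest of its group, and its part in these values was not tested.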

How the results depend on the processing

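All 8 log2 fold changes stayed above 0 in every alternative run. Of the 8 members 2 passed with edgeR on all libraries, 5 with DESeq2 (Asl, Slc25a13, Ass1, Arg1 and Slc25a15), 1 with no filter on low counts (Asl), 0 at a threshold of 0.01, 4 at 0.10, and 0 to 2 when 1 library was left out (0 without antibiotics library 1). Over all genes the count of 398 was 975 with DESeq2, 20 at 0.01, 937 at 0.10 and 36 to 455 with 1 library left out, lowest without antibiotics library 5. Joining Ass1 with Gm5424 gave 2 and 398. The replicate block, fitted over the 8 libraries whose number occurs in both groups, gave 1 member (Asl) and 179 genes, beside 1 and 144 for the same libraries without the block. Deviations from the group mean had correlations of -0.06 to 0.10 between same-numbered libraries. Between differently numbered libraries they were -0.11 to 0.12, so the numbers were not taken as pairs. At this depth and spread, changes as small as that of Nags would mostly be missed.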

Other observations

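Of 13 tested mitochondrial matrix enzymes outside the cycle, 1 was higher and 0 lower by edgeR's test, with a median log2 fold change of 0.12. Over all tested genes 1.63% were higher. The matrix enzyme that passed was Ivd, the isovaleryl-CoA dehydrogenase of leucine breakdown, which rose from 120 ± 5.81 to 161 ± 19.9 CPM (adjusted p = 0.0306). Its call ended without control library 2 or 4 or antibiotics library 1, 3 or 5 (adjusted p = 0.0583 to 0.0827). Citrate synthase, Cs, measured 208 ± 21.1 and 167 ± 14.7 CPM (adjusted p = 0.0932), against the direction of the list.

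Genes of both hepatocyte zones passed the test in both directions. Outside the cycle, 1 of 15 periportal genes was higher and 1 lower, with a median of -0.11. Over all tested genes 1.63% passed as higher and 2.68% in either direction. The higher periportal gene was Sds, already counted among the amino nitrogen enzymes. The gene that fell was the cadherin Cdh1, from 45.7 ± 7.72 to 27.2 ± 6.85 CPM (edgeR adjusted p = 0.0447), a call that held with control library 2 omitted and with no other omission. With any 1 library omitted the list had at most 1 call. The histidine ammonia lyase Hal measured 280 ± 36.8 and 380 ± 45.8 CPM (adjusted p = 0.0637). Of 15 pericentral genes 2 were higher and 1 lower, with a median of 0.19. Oat was 1 of the 2 higher genes and was already counted in the arginine list. The antibiotics libraries lay above all controls for 4 of the 15 and below them for 1, against 4.59% and 4.29% of tested genes. Cyp2e1 measured 4149 ± 413 and 5982 ± 1088 CPM (edgeR adjusted p = 0.0662). Rnf43, a Wnt feedback gene, rose 1.57-fold (adjusted p = 0.0323) and Cyp2c29 fell from 1054 ± 258 to 546 ± 167 CPM (adjusted p = 0.0472). Both calls held with 2 of the 9 possible omissions of a library. The list had 0 calls without antibiotics library 1 or 3, and 1 higher gene without control library 1, 2 or 4 or antibiotics library 5. The enterocyte list, of whose 6 genes 2 passed the filter on low counts, summed to between 538 and 844 CPM in controls and 437 to 759 CPM with antibiotics. Whether these counts came from liver or intestinal cells was not tested. The kidney list summed to at most 3.67 CPM in any library.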
